A study of Mus musculus with 24 samples.

Results

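The genes described here encode proteins that coat, build or regulate lipid droplets: the 5 perilipins Plin1, Plin2, Plin3, Plin4 and Plin5, and Cidec, Bscl2, Fitm1, Fitm2 and Hilpda. They were taken by symbol from the read count table, and all 10 were among its 19175 genes and among the 14982 that passed the filter on low counts. RNA-Seq was performed on subcutaneous adipose tissue (sWAT) of 24 mice, 6 each of female Gdf15-KO, female WT, male Gdf15-KO and male WT. Gdf15-KO mice lack growth differentiation factor 15, a stress-induced hormone, in every tissue, and WT mice were littermates from crosses of heterozygous parents. All mice were on a C57BL/6/129/SvJ background, 20 weeks old, kept on standard chow and killed at lights off while fed ad libitum. The knockout is constitutive, so adult loss and loss during development cannot be told apart. The comparisons ask of each gene whether its level differed between Gdf15-KO and WT mice of one sex, and whether it differed between females and males of one genotype.

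White adipocytes store triglyceride in a single large lipid droplet, a core of neutral lipid under a phospholipid monolayer. Perilipins bind this surface and control the access of lipases. Plin1 is the main coat of the adipocyte droplet and holds the lipase activator ABHD5 until adrenergic signals release it, Plin2 coats small droplets in most cell types, Plin3 is a widely expressed coat that moves to droplets from the cytosol, Plin4 is abundant in white adipocytes, and Plin5 belongs to tissues that oxidize fat and links droplets to mitochondria. Cidec (FSP27 in mice) sits where droplets touch and moves lipid from the smaller to the larger one. Bscl2 encodes seipin, which organizes new droplets at the endoplasmic reticulum and whose loss causes lipodystrophy in humans and mice. Fitm1 and Fitm2 encode endoplasmic reticulum proteins needed for droplets to bud, with Fitm1 expressed mainly in skeletal muscle. Hilpda is induced by hypoxia and fatty acids and inhibits the lipase ATGL.

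The promoters of Plin2, Plin5 and Hilpda are shown because these genes had the smallest unadjusted p-values between genotypes in 1 or both sexes and are known targets of fatty acid or oxygen sensors. Each is the 250 bases before a RefSeq transcript start in GRCm38.p6, written 5′ to 3′ along the gene, with the motif found in capitals. Plin5 and Hilpda each had another RefSeq promoter in which no motif was found, and only the one with a match is shown.
Plin2 promoter, chr4:86670060-86670309, minus strand: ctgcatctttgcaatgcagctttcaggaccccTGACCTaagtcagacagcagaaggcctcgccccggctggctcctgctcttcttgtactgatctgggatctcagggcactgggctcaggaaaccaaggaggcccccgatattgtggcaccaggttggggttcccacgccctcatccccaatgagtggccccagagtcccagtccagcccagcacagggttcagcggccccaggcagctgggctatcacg
Plin5 promoter, chr17:56117549-56117798, minus strand: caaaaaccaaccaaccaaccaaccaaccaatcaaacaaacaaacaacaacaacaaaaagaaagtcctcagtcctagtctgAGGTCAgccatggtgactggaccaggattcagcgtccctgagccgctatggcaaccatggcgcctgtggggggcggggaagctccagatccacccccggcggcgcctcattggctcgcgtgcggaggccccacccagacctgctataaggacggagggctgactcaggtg
Hilpda promoter, chr6:29272376-29272625, plus strand: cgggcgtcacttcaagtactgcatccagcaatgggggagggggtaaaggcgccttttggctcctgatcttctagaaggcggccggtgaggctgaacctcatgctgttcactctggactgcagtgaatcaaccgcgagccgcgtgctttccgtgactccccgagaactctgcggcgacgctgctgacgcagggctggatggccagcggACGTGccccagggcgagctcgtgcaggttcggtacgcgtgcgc
In Plin2 and Plin5 the capitals mark AGGTCA or its complement, a single receptor site that nuclear receptors such as PPARs can bind as part of a pair, starting 218 and 170 bases before the start. In Hilpda they mark ACGTG, a form of the core of the hypoxia response element, 43 bases before the start. The other form of that core, GCGTG, was not searched for and also occurs, unmarked, in the Hilpda sequence shown. The motif AGGTCA, the DR1 element of PPARs (2 copies of AGGNCA with 1 base between them) and ACGTG were searched on both strands in the 15 RefSeq promoters that matched the 10 genes. AGGTCA was in 3 of the 15, the third being a Bscl2 promoter, and in 14.02% of all 32851 promoters. The DR1 element was in 0 of the 15 and in 0.338% of all, and ACGTG in 1 of the 15 and in 16.6% of all. A match only describes these letters.

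Sequencing depth was even, with 22521358 to 24500575 expected counts per mouse. Gdf15 itself had 3 counts over the 6 female Gdf15-KO mice and 73 over the 6 female WT mice, and 4 counts over the male Gdf15-KO mice and 135 over the male WT mice. All 12 adipocyte markers, among them Adipoq and Fabp4, were detected in every mouse, as the tissue label requires. Skeletal muscle markers were uneven between mice of every group, with summed levels of 585 to 11802 CPM in female Gdf15-KO, 24.04 to 15894 CPM in female WT, 80.0 to 15969 CPM in male Gdf15-KO and 227 to 36681 CPM in male WT mice. CPM are a gene's counts scaled to a common library size, after TMM normalization. In edgeR none of the 12 muscle markers was called in any comparison. At an unadjusted p under 0.05, 2 of 12 were lower in female than in male WT mice, beside 15.5% of all genes. In the other comparisons it was 0 of 12. Mammary and epithelial markers summed to 1021 to 1474 CPM in female Gdf15-KO and 1294 to 2266 CPM in female WT mice, and to 9.02 to 13.6 CPM in male Gdf15-KO and 8.31 to 25.4 CPM in male WT mice. Krt5, Krt14, Elf5 and Csn3 were at 0 in at least 1 male of each genotype. In a tissue sample, fewer cells of a type and less RNA per cell cannot be told apart.

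Expression of the 10 genes spanned the range of the tissue. By mean level Plin4 ranked 19 of 14982 genes, Cidec 63, Plin1 89, Plin2 317 and Bscl2 605, whereas Fitm2 ranked 3074, Plin3 3907, Plin5 10804, Hilpda 12081 and Fitm1 12289. Together the 10 took a median 0.420% of all counts in female Gdf15-KO, 0.419% in female WT, 0.649% in male Gdf15-KO and 0.597% in male WT mice. The ranks above use CPM, which are not scaled for transcript length. Per kilobase of the canonical transcript, mean Cidec lay above mean Plin4 in every group. The means were 320 against 239 CPM in female Gdf15-KO and 388 against 218 CPM in female WT mice. In males they were 531 against 414 CPM in Gdf15-KO and 523 against 403 CPM in WT mice. On that scale, Plin1 and Plin4 made up most of the perilipin mRNA: the median share of Plin1 was 40.1% in female Gdf15-KO, 38.5% in female WT, 37.2% in male Gdf15-KO and 36.4% in male WT mice. Plin4 had median shares of 39.1% in female Gdf15-KO, 31.5% in female WT, 42.5% in male Gdf15-KO and 39.8% in male WT mice. Plin2 had 18.1% (16.9 to 27.8%) in female Gdf15-KO and 25.8% (21.2 to 34.7%) in female WT mice, and 17.95% in male Gdf15-KO and 20.5% in male WT mice. Plin3 held 1.57 to 2.44% in the group medians and Plin5 0.284 to 0.607%.

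Some of these counts may include reads of neighbouring genes, since the sources used here do not give the strand setting of the counting. In GENCODE M39 (GRCm39), 3124 of the 7987 exon bases of Plin4 (57435, chr17:56406617-56416931, minus strand) overlap the gene Hdgfl2 on the opposite strand. Bscl2 (14705, chr19:8814810-8826051, plus strand) shares 1105 of its 6772 exon bases with Gng3 on the opposite strand and 239 with Gm50139 on its own strand. Plin5 (66968, chr17:56418446-56424610, minus strand) lies 1514 bases from Plin4 with no protein-coding gene between them, and Plin3 (66905, chr17:56584218-56599873, minus strand) lies 159607 bases beyond Plin5, with 7 protein-coding genes between. The remaining genes are on other chromosomes: Plin1 (103968) at chr7:79369966-79382718, Plin2 (11520) at chr4:86565912-86588459, Cidec (14311) at chr6:113400691-113412721 and Hilpda (69573) at chr6:29272409-29276301. Fitm1 (68680) is at chr14:55812992-55814411 and Fitm2 (228859) at chr2:163308228-163314576.

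**Figure D1:**
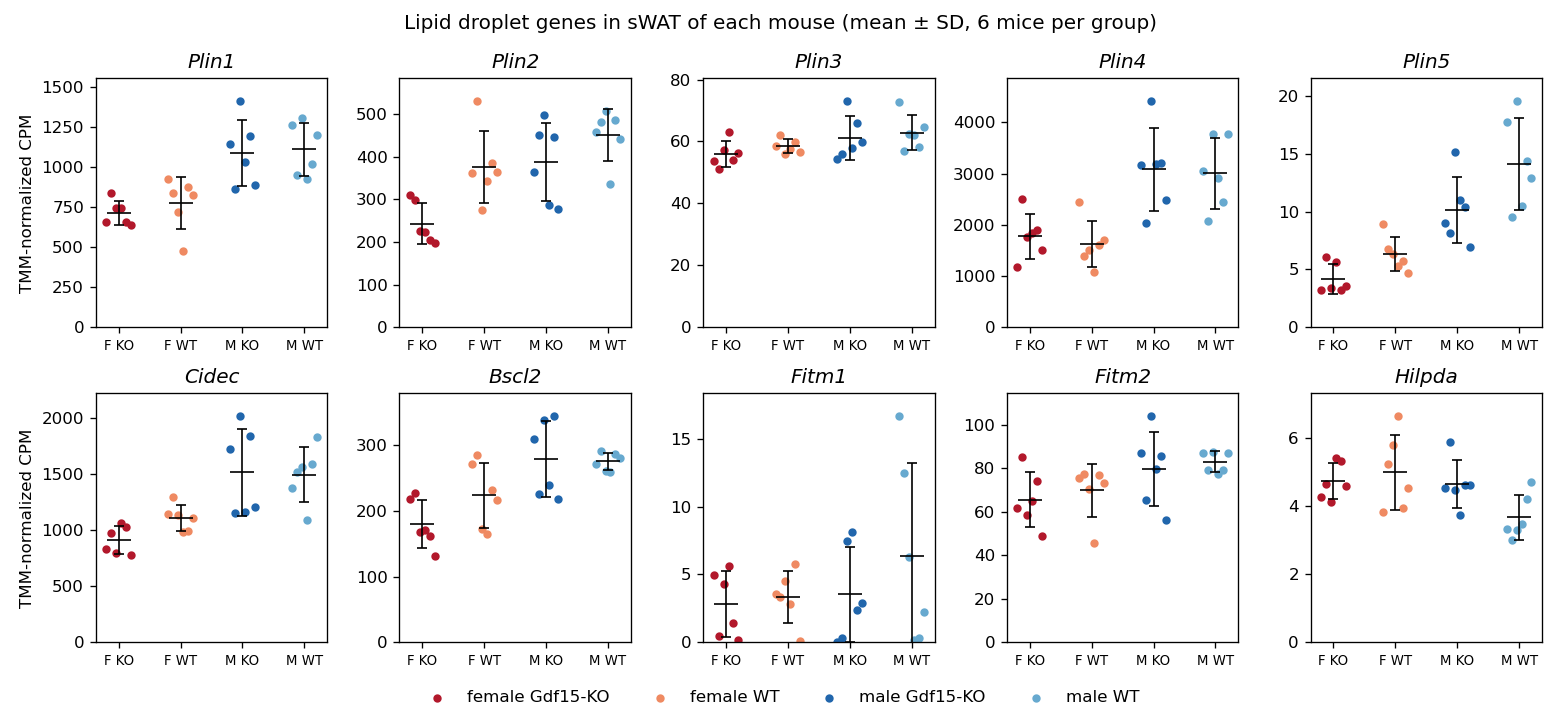
Level of each lipid droplet gene in each mouse (y axis, TMM-normalized CPM, linear and starting at 0) in female (F) and male (M) Gdf15-KO and WT mice (x axis, 6 points per group). Bars show the mean ± SD. Within each genotype, mean levels of females lie below those of males for every gene except Hilpda. Within a genotype the sexes do not overlap for Plin1 and Plin5, and they overlap for Plin4 and, in WT mice, for Cidec. Fitm1 varies from 0.0431 to 16.7 CPM between mice.

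Between Gdf15-KO and WT mice none of the 10 genes passed the test in either sex. In females 0 of 10 were called at an adjusted p under 0.05 in edgeR's quasi-likelihood test, where 0.194% of all tested genes were called in either direction. Plin2, Plin5 and Bscl2 had an unadjusted p under 0.05, each lower in Gdf15-KO, beside 7.36% of all genes. DESeq2 called 1 of the 10 in females, Plin2, beside 0.494% of all genes, and limma-voom called 0, beside 0.18%. In males edgeR called 0 of 10, beside 0.2% of all genes, DESeq2 also 0, beside 0.341%, and limma-voom 0, beside 0.194%. Plin5 was lower at an unadjusted p under 0.05, as were 3.09% of all genes, and Hilpda was higher, as were 2.38%. The median log2 fold change of the 10 genes was -0.18 in females, against -0.00 over all tested genes, and -0.03 in males, against 0.00 over all tested genes.

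Plin2 showed the smallest p of the set. Its level was 197, 225 and 309 CPM in female Gdf15-KO mice (lowest, median and highest of 6), against 274, 363 and 530 CPM in female WT mice. The 4 lowest females were Gdf15-KO, and the ranges overlapped only through the highest Gdf15-KO mice and the lowest WT mouse. The log2 fold change was -0.63 (standard error 0.16, 95% interval -0.97 to -0.29), a ratio of 0.646, with an unadjusted p of 0.000752, rank 58 of 14982, and an adjusted p of 0.192 from edgeR. DESeq2 gave -0.63 with an adjusted p of 0.0285, and, in a fit to females alone that was chosen after seeing the data, an adjusted p of 0.0158, where 1.3% of all genes were called. Plin2 in males was 278, 405 and 498 CPM in Gdf15-KO mice and 336, 470 and 508 CPM in WT mice, which largely overlapped. The male log2 fold change was -0.22 (standard error 0.16, 95% interval -0.56 to 0.11, edgeR adjusted p = 0.942).

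Plin5, the perilipin of oxidative tissues, was low throughout, with 79 to 440 counts per mouse. It had 3.21, 3.52 and 6.04 CPM in female Gdf15-KO mice and 4.72, 6.05 and 8.94 CPM in female WT mice. In males it had 6.99, 9.72 and 15.1 CPM in Gdf15-KO mice and 9.51, 13.6 and 19.6 CPM in WT mice. The medians were lower in Gdf15-KO mice of both sexes, and the groups overlapped in both. The log2 fold changes were -0.59 (standard error 0.22, adjusted p = 0.343) in females and -0.48 (standard error 0.21, adjusted p = 0.849) in males (edgeR). All 8 markers of brown and beige adipocytes, cells that use Plin5, had negative log2 fold changes in Gdf15-KO mice of each sex (medians -0.67 in females and -0.88 in males). Over all genes 51.4% were negative in females and 49.6% in males. This was not particular to them: mammary and epithelial markers were negative in 12 of 12 in females and 11 of 12 in males (medians -0.27 and -1.56). Skeletal muscle markers were negative in 9 of 12 and 11 of 12 (medians -0.44 and -1.10). Of the 8 brown and beige markers, Cidea passed edgeR's test in females, beside 0.194% of all genes, and none did in males. In males 3 of the 8 were lower at an unadjusted p under 0.05, beside 3.09% of all genes. The summed level of the brown and beige markers was 24.9 to 67.5 CPM in female Gdf15-KO and 51.8 to 113 CPM in female WT mice. In males it was 69.7 to 137 CPM in Gdf15-KO and 83.4 to 236 CPM in WT mice. Ucp1, their defining gene, was at 0 in at least 1 female Gdf15-KO mouse, and the part of these cells in the Plin5 values was not tested.

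With both sexes averaged, Plin2 had a log2 fold change of -0.43 (standard error 0.11, 95% interval -0.66 to -0.19) and Plin5 of -0.53 (standard error 0.15, 95% interval -0.85 to -0.22). Neither passed the correction over all genes in edgeR, with adjusted p of 0.119 and 0.144. In all, 0 of 10 genes were called, where 0.414% of all genes were, and these 2 were lower at an unadjusted p under 0.05, as were 8.68% of all genes. DESeq2 called both (adjusted p = 0.0228 for Plin2 and 0.0404 for Plin5) beside 1.56% of all genes, and limma-voom called neither, beside 0.387%. Without male WT replicate 4, edgeR called Plin2 (log2 fold change -0.45, adjusted p = 0.0463), where 1.36% of all genes were called. Adding the adipocyte marker score as a covariate also brought both past the threshold, with adjusted p of 0.0374 for Plin2 and 0.0486 for Plin5, beside 1.6% of all genes called. The epithelial score, centred within each sex, brought Plin2 to an adjusted p of 0.0344, beside 2.97% of all genes.

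Plin1, Plin4 and Plin3 did not pass the test in either sex, nor at an unadjusted p under 0.05. Plin1 was 642, 701 and 841 CPM in female Gdf15-KO mice and 479, 836 and 927.5 CPM in female WT mice. All Gdf15-KO values lay inside the WT range, whose low end was female WT replicate 4 alone. The next lowest WT mouse had 721 CPM, above the Gdf15-KO median. The log2 fold change of Plin1 was -0.12 (95% interval -0.42 to 0.17) in females and -0.03 (95% interval -0.32 to 0.27) in males. With 1 mouse left out at a time, the female value ranged from -0.23 to -0.06. Plin4 was 1169, 1801 and 2500 CPM in female Gdf15-KO mice and 1082, 1565 and 2442 CPM in female WT mice, with log2 fold changes of 0.13 (95% interval -0.29 to 0.55) in females and 0.04 (95% interval -0.38 to 0.46) in males. Plin3 varied little among females, with 51.2 to 63.1 CPM in female Gdf15-KO and 56.0 to 62.1 CPM in female WT mice (coefficients of variation 7.40% and 3.88%). The 95% interval of its log2 fold change was -0.21 to 0.08 in females and -0.18 to 0.10 in males.

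Among the proteins that build or enlarge droplets, Cidec had 783, 905 and 1069 CPM in female Gdf15-KO mice and 981, 1121 and 1293 CPM in female WT mice, with overlap between 981 and 1069 CPM. Its log2 fold change was -0.28 (standard error 0.14, unadjusted p = 0.0649, edgeR adjusted p = 0.489) in females and 0.02 in males. Bscl2 had 132, 170 and 228 CPM in female Gdf15-KO mice and 164, 224 and 286 CPM in female WT mice. The log2 fold change of Bscl2 was -0.31 (standard error 0.15, unadjusted p = 0.0451, edgeR adjusted p = 0.444) in females and 0.02 in males. Fitm2 had log2 fold changes of -0.09 in females and -0.06 in males. Fitm1 had -0.24 (95% interval -2.21 to 1.74) in females and -0.84 (95% interval -2.79 to 1.105) in males, so that neither direction was resolved.

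Hilpda, the ATGL inhibitor, had 3.72, 4.56 and 5.88 CPM in male Gdf15-KO mice and 3.01, 3.39 and 4.71 CPM in male WT mice. The male groups overlapped, and the log2 fold change was 0.34 (standard error 0.14, unadjusted p = 0.027, edgeR adjusted p = 0.83). Female values were 4.12, 4.62 and 5.40 CPM in Gdf15-KO mice and 3.83, 4.87 and 6.63 CPM in WT mice, with a log2 fold change of -0.08. Of 12 other targets of hypoxia-inducible factors, 0 passed edgeR's test in either sex, beside 0.194% of all genes in females and 0.2% in males. Among the 12, 3 were lower in females with an unadjusted p under 0.05, where 7.36% of all genes were. In males 1 was lower by that measure, where 3.09% of all genes were. The median log2 fold change of the 12 targets was -0.04 in females and -0.07 in males.

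No pair of Gdf15-KO and WT groups was separate for any of the 10 genes, where 1.03% of all genes had non-overlapping groups in females and 0.481% in males. The difference of the genotype effect between females and males was not called for any of the 10, and 0% of all genes were called. At an unadjusted p under 0.05 it was 0 of 10, beside 3.48% of all genes. DESeq2 and limma-voom also called 0. The largest differences were -0.42 for Hilpda (95% interval -0.83 to 0.00, unadjusted p = 0.0501, edgeR adjusted p = 0.998) and -0.41 for Plin2 (95% interval -0.88 to 0.06, adjusted p = 0.998), leaving aside Fitm1 at 0.61 (95% interval -2.16 to 3.37).

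**Figure D2:**
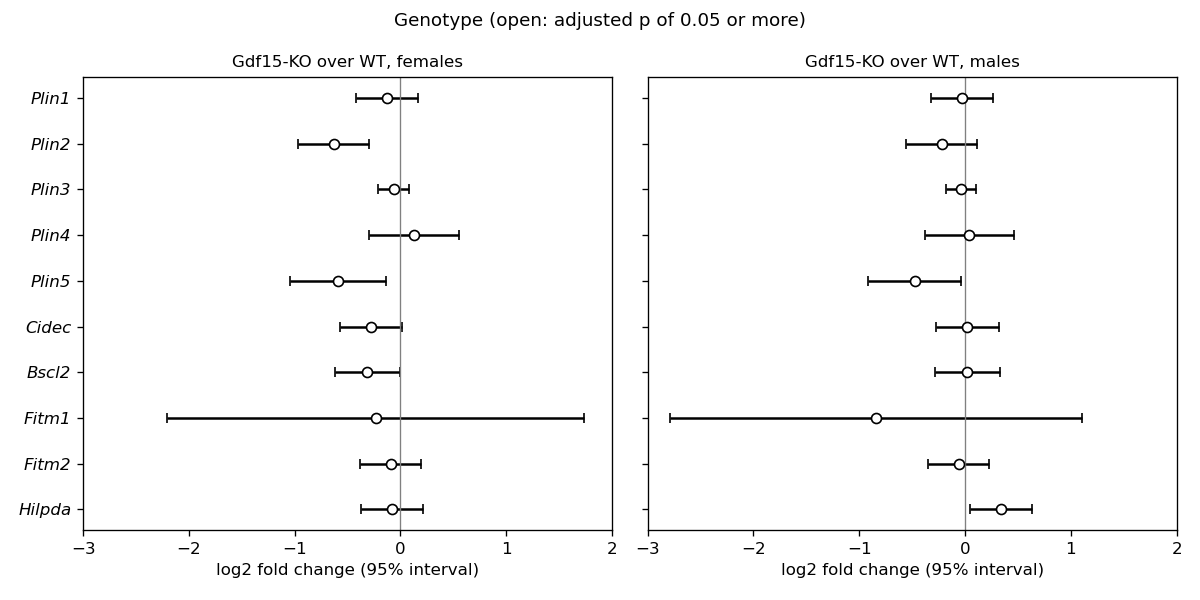
Log2 fold change of each gene between Gdf15-KO and WT mice (x axis) in females (left) and males (right), with 95% intervals from edgeR. Open points mark an adjusted p of 0.05 or more, which holds for all 20 values. Plin2 and Plin5 in females lie farthest below 0 among the intervals that do not cross it.

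More of the 10 genes passed the test between the sexes than between genotypes. In Gdf15-KO mice 6 of 10 genes were lower in females, Plin1, Plin2, Plin4, Plin5, Cidec and Bscl2, where 14.3% of all genes were lower, and 0 of 10 were higher, where 17.7% were. In WT mice 4 of 10 were lower in females, Plin1, Plin4, Plin5 and Cidec, beside 9.12% of all genes, and 1, Hilpda, was higher, beside 15% of all genes. The median log2 fold change of the 10 genes was -0.62 in Gdf15-KO and -0.37 in WT mice, against -0.02 and -0.01 over all tested genes. Plin3, Fitm1 and Fitm2 were called in neither genotype. Fitm2 in Gdf15-KO mice (-0.28, adjusted p = 0.128) was called without female Gdf15-KO replicate 14 (-0.37, adjusted p = 0.0459) or male Gdf15-KO replicate 18 (-0.37, adjusted p = 0.0374), and with the adipocyte score as a covariate its sign turned (0.09999, adjusted p = 0.467). The female and male groups did not overlap for Plin1, Plin5 and Cidec in Gdf15-KO mice, beside 4.68% of all genes that were separate in that direction, and for Plin1 and Plin5 in WT mice, beside 3.1%.

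Plin5 had the largest log2 fold changes between the sexes among the genes called. Its female values of 3.21 to 6.04 CPM lay below the male values of 6.99 to 15.1 CPM in Gdf15-KO mice, and its female values of 4.72 to 8.94 CPM lay below the male values of 9.51 to 19.6 CPM in WT mice. The log2 fold change was -1.27 (standard error 0.22, edgeR adjusted p = 0.00011) in Gdf15-KO and -1.16 (standard error 0.22, edgeR adjusted p = 0.00028) in WT mice, ratios of 0.414 and 0.448. Plin1, the main adipocyte coat, was 642 to 841 CPM in females and 866 to 1415 CPM in males among Gdf15-KO mice, and 479 to 927.5 CPM in females and 928.4 to 1311 CPM in males among WT mice. The WT groups were apart by less than 1 CPM. Its log2 fold change was -0.61 (standard error 0.14, edgeR adjusted p = 0.0022) in Gdf15-KO and -0.51 (standard error 0.14, edgeR adjusted p = 0.0102) in WT mice. With the adipocyte score as a covariate the Gdf15-KO call of Plin1 was lost (-0.22, adjusted p = 0.0964).

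Plin4, the most abundant of the 10 in counts, had 1169, 1801 and 2500 CPM in female and 2037, 3182 and 4419 CPM in male Gdf15-KO mice. In WT mice it had 1082, 1565 and 2442 CPM in females and 2068, 2989 and 3774 CPM in males. Only the highest females reached the lowest males. The log2 fold change was -0.79 (standard error 0.20, edgeR adjusted p = 0.00476) in Gdf15-KO and -0.88 (standard error 0.21, edgeR adjusted p = 0.00257) in WT mice. Cidec had 783, 905 and 1069 CPM in female and 1155, 1467 and 2020 CPM in male Gdf15-KO mice, and 981, 1121 and 1293 CPM in female and 1092, 1542 and 1835 CPM in male WT mice. The log2 fold change of Cidec was -0.73 (standard error 0.14, edgeR adjusted p = 0.000478) in Gdf15-KO and -0.43 (standard error 0.14, edgeR adjusted p = 0.0316) in WT mice. The WT call of Cidec was lost without any 1 of female WT replicates 4 and 5 and male WT replicates 3, 5 and 6, where adjusted p ranged from 0.0547 to 0.0757. It was also lost with the adipocyte score as a covariate (-0.21, adjusted p = 0.177), as was the Gdf15-KO call of Plin4 (-0.38, adjusted p = 0.154).

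Plin2 and Bscl2 were lower in females among Gdf15-KO mice, with log2 fold changes of -0.67 (standard error 0.16, edgeR adjusted p = 0.00293) and -0.63 (standard error 0.15, edgeR adjusted p = 0.00233). Both calls were lost with the adipocyte score as a covariate, with -0.43 for Plin2 (adjusted p = 0.0740) and -0.28 for Bscl2 (adjusted p = 0.108). In WT mice they had log2 fold changes of -0.26 (95% interval -0.60 to 0.07) and -0.30 (95% interval -0.61 to 0.01) with adjusted p of 0.253 and 0.15. That the sex difference was called in one genotype does not show that it differed between genotypes, and the tests of that difference, -0.41 for Plin2 and -0.33 for Bscl2, had an adjusted p of 0.998 each in edgeR.

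Hilpda, which responds to hypoxia and fatty acids, was called higher in females among WT mice and was not called among Gdf15-KO mice. It had 3.83, 4.87 and 6.63 CPM in female WT mice and 3.01, 3.39 and 4.71 CPM in male WT mice, groups that overlapped. The log2 fold change was 0.44 (standard error 0.14, edgeR adjusted p = 0.0269), and in Gdf15-KO mice it was 0.03 (95% interval -0.27 to 0.32). The test of the difference between these 2 values gave -0.42 with an adjusted p of 0.998 in edgeR. This call was lost without any 1 of female WT replicates 2, 3 and 4 and male WT replicates 1, 2 and 3, with adjusted p of 0.0513 to 0.0851, in WT mice fitted alone, with 0.0755, and with the adipocyte score as a covariate, with 0.0941. Among hypoxia targets, Egln3, a HIF hydroxylase, was higher in females of both genotypes (1.35 in Gdf15-KO and 1.60 in WT mice). Kdm3a was higher (0.32 and 0.22), and Egln1 was lower (-0.36 and -0.38). In Gdf15-KO mice 2 of 12 targets were higher, beside 17.7% of all genes, and 2 were lower, beside 14.3%. In WT mice 3 of 12 were higher, beside 15%, and 1 was lower, beside 9.12%.

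**Figure D3:**
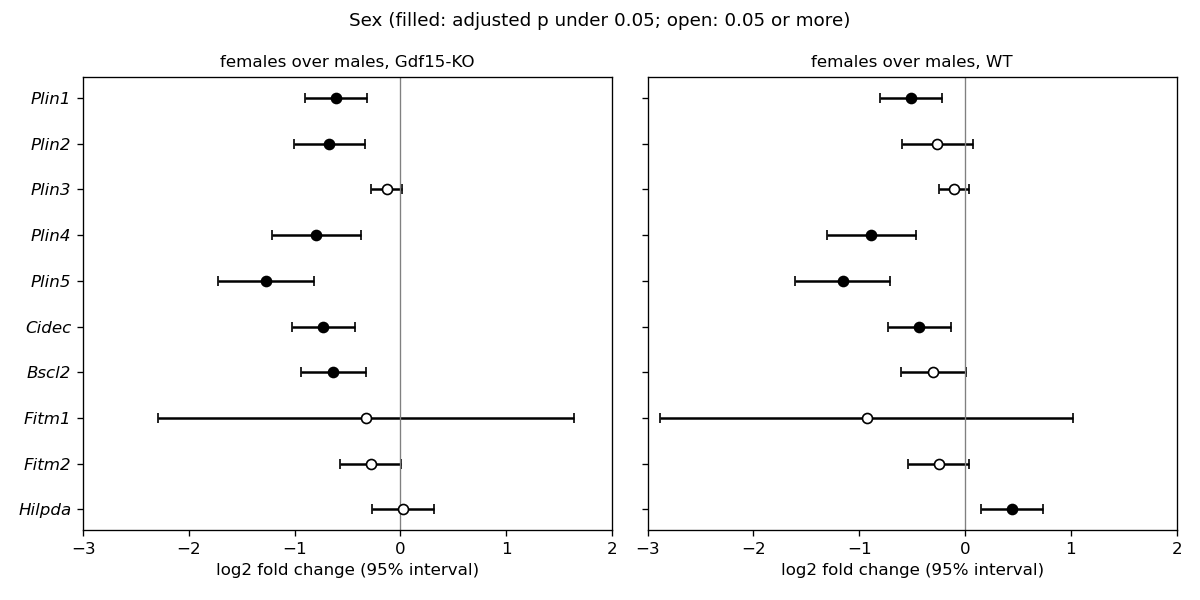
Log2 fold change of each gene between females and males (x axis) in Gdf15-KO (left) and WT (right) mice, with 95% intervals from edgeR. Filled points mark an adjusted p under 0.05: 6 genes in Gdf15-KO and 5 in WT mice. Values below 0 are lower in females, and Hilpda in WT mice is the filled point above 0.

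Some adipocyte markers were also lower in females. In Gdf15-KO mice 6 of the 12 were lower in females, beside 14.3% of all genes, and the 12 had a median log2 fold change of -0.45. In WT mice 2 of 12 were lower, beside 9.12%, and the 12 had a median of -0.26. In WT mice 3 of the 12 had positive values that did not pass the test, Retn (0.25), Slc2a4 (0.13) and Pparg (0.06). Aqp7, the adipocyte glycerol channel, was lower by log2 fold changes of -0.81 and -0.61, and Fabp4, a fatty acid carrier, by -0.51 and -0.50. The markers summed to 16448 to 21345 CPM in female Gdf15-KO and 21162 to 32644 CPM in male Gdf15-KO mice, and to 14898 to 24431 CPM in female WT and 19597 to 28346 CPM in male WT mice. With the adipocyte score as a covariate, 2 of the 10 lipid droplet genes were called lower in Gdf15-KO mice, Plin5 and Cidec, where 7.84% of all genes were, and 3 in WT mice, Plin1, Plin4 and Plin5, where 8.17% of all genes were. Female WT replicate 4, with 14898 CPM, had the lowest adipocyte score of all mice and the highest epithelial one. In Gdf15-KO mice 3 of 8 brown and beige markers and 3 of 12 macrophage markers were lower in females, beside 14.3% of all genes. In WT mice it was 2 of 8 and 1 of 12, beside 9.12%. The part of any of these cells in the sex differences was not tested. All 12 mammary and epithelial markers were higher in females of both genotypes, by medians of 8.85 and 7.17 on the log2 scale. Over all genes 17.7% were higher in Gdf15-KO and 15% in WT mice. Removing male WT replicates 3, 4 and 6, the males with the highest epithelial score, was an alternative chosen after seeing the data. It left 1 of the 5 WT calls, Plin5, where 6.44% of all genes were lower. It also left fewer male WT mice, and the part of the smaller group in the lost calls was not tested.

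Proteins that work beside these on the droplet were read from a list of 28, of which 25 were tested. Between genotypes 1 of 25 was called in females, beside 0.194% of all genes, and 0 in males, beside 0.2%. Cidea, the CIDE protein of brown and beige adipocytes and also one of their 8 markers above, had 11.2, 18.9 and 27.3 CPM in female Gdf15-KO mice and 26.2, 43.3 and 59.9 CPM in female WT mice. Its log2 fold change was -1.18 (standard error 0.23, edgeR adjusted p = 0.0194) in females and -0.82 (standard error 0.22, edgeR adjusted p = 0.302) in males. In females 22 of 25 values were negative with a median of -0.10, against 51.4% negative over all tested genes. In males it was 12 of 25 with a median of 0.01, against 49.6%.

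Between the sexes, 12 of 25 partners were lower in females among Gdf15-KO mice, beside 14.3% of all genes, and 1 was higher, beside 17.7%. Among WT mice 6 of 25 were lower, beside 9.12%, and 1 was higher, beside 15%. Cidea was lower in females by -1.53 and -1.17 (log2 fold change in Gdf15-KO and in WT mice), Cav1, which forms caveolae, by -0.67 and -0.55, and its partner Cavin1 by -0.57 and -0.46. G0s2, an inhibitor of ATGL, was lower by -0.68 and -0.89, and Ubxn8, a membrane anchor of the p97 ATPase, by -0.36 and -0.38. Faf2, another p97 adaptor on droplets, was the gene that was higher (0.15 and 0.19). Pnpla2, which encodes ATGL, was lower by -0.49 in Gdf15-KO mice (edgeR adjusted p = 0.00588) and had -0.23 in WT mice (edgeR adjusted p = 0.206). PPAR targets shared with other tissues gave 4 of 10 lower in females in each genotype, among them Acadm, an enzyme of fatty acid oxidation (-0.50 and -0.59). Between Gdf15-KO and WT mice edgeR called 0 of these 10 in either sex, beside 0.194% of all genes in females and 0.2% in males. In each sex 1 of the 10 was lower with an unadjusted p under 0.05. Over all genes it was 7.36% in females and 3.09% in males.

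Across the 24 mice, with each value taken as its distance from the mean of its group, the genes tracked the marker scores to unequal degrees. A score is the mean log2 CPM of a marker list. Of 50 pairs of gene and score, 10 passed an adjusted p under 0.05 in a permutation test within groups. Fitm1 followed the skeletal muscle score, with Pearson's r = 0.979 and Spearman's rho = 0.965 (adjusted permutation p = 0.000167 and 0.0005, from the smallest p that 100000 permutations can give, 1e-05). Without the 2 mice farthest from the median score r was 0.978, and it was 0.953 in females and 0.995 in males. The counts of Fitm1 ran from 1 to 341 per mouse, and with the muscle score as a covariate its male log2 fold change between Gdf15-KO and WT mice was 0.02. Of 9 lymphocyte markers, 0 were called by edgeR in any comparison, and 0 had an unadjusted p under 0.05.

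Plin1 (r = 0.873), Fitm2 (r = 0.858), Cidec (r = 0.77), Bscl2 (r = 0.739) and Plin4 (r = 0.636) followed the adipocyte score, with adjusted permutation p of 0.000167, 0.000167, 0.001, 0.001 and 0.0142. Spearman's rho was 0.779 for Plin1, 0.795 for Fitm2, 0.774 for Cidec, 0.717 for Bscl2 and 0.619 for Plin4, with adjusted permutation p of 0.00167, 0.00075, 0.00337, 0.00508 and 0.0161. The r without the 2 farthest mice was 0.776 for Plin1, 0.78 for Fitm2, 0.818 for Cidec, 0.671 for Bscl2 and 0.498 for Plin4. Plin5 followed the brown and beige score (r = 0.705, rho = 0.698, adjusted permutation p = 0.0036). Plin2 had r = 0.483 with the adipocyte score and r = 0.47 with the brown and beige score, neither past the correction (adjusted permutation p = 0.124 and 0.0824). Without the 2 farthest mice these r were 0.674 and 0.467, values that were not tested. Hilpda followed none of the 5 scores, with r from -0.252 to 0.28. Of the remaining pairs, Plin1 and Fitm1 passed with the brown and beige score (r = 0.601 and 0.604), and Bscl2 with the mammary and epithelial score (r = -0.34, rho = -0.49, adjusted permutation p = 0.0133 and 0.0187). Fitm1 and the macrophage score passed by rho (0.57, adjusted permutation p = 0.0288) but not by r (0.52, adjusted permutation p = 0.0501).

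**Figure D4:**
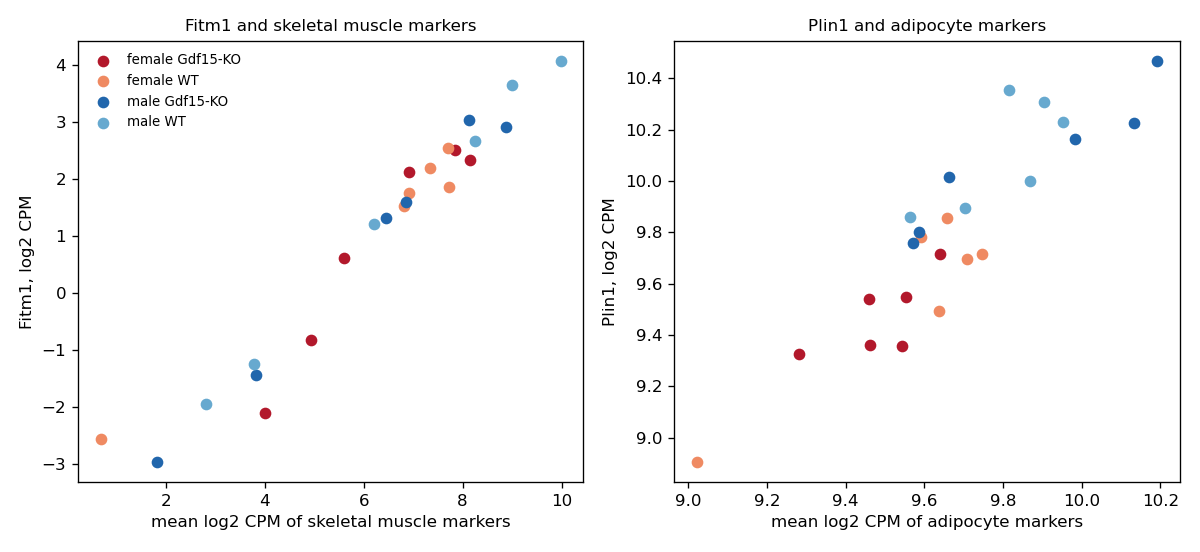
Level of Fitm1 against the skeletal muscle score (left) and of Plin1 against the adipocyte score (right), both in log2 CPM, with 1 point per mouse coloured by group. Fitm1 rises along the muscle score over mice of all 4 groups (r = 0.979 within groups), and Plin1 along the adipocyte score (r = 0.873 within groups), where 1 female WT mouse lies at the low end of both axes.

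Among 13969 genes of at least 1 CPM, the genes most like each member over the 24 mice, by Pearson's r of values centred within groups, were as follows. Bscl2 was nearest to Agpat2 (r = 0.95), which makes phosphatidic acid and is the other classic gene of congenital lipodystrophy. Plin1 was nearest to Por (r = 0.931) and Lipe (r = 0.928), which encodes hormone-sensitive lipase, which acts at droplets that Plin1 coats. Plin2 was nearest to Tecr (r = 0.892), an enzyme of fatty acid elongation, and Fdps (r = 0.882), an enzyme of isoprenoid and cholesterol synthesis. Plin5 was nearest to Acaa2 (r = 0.813), a mitochondrial enzyme of fatty acid oxidation, and Cidec to Aifm2 (r = 0.883). Fitm1 was nearest to the muscle genes Jsrp1 (r = 0.994) and Hjv (r = 0.994), Fitm2 to Epb41l1 (r = 0.933), Plin4 to Tenm4 (r = 0.906), Plin3 to Ptpra (r = 0.836) and Hilpda to Vamp8 (r = 0.867). Within the set, Plin1 and Fitm2 were the most alike (r = 0.838), and Plin1 and Hilpda the least (r = -0.452).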

How the data were processed

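The authors deposited RSEM expected counts per gene, made from 150 bp paired reads that were aligned to GRCm39 with Bowtie2 2.2.5 and quantified with RSEM 1.2.8, per the methods and labels. Of these values 5.07% were not whole, and they were rounded here. Each of the 24 libraries is a separate mouse per the labels. Genes passed filterByExpr (10 counts, total 15), were scaled by TMM and tested with edgeR 4.0.16 (R 4.3.3), with 1 mean per group and 6 comparisons. Benjamini-Hochberg adjustment ran over all 14982 genes, called at an adjusted p under 0.05. Log2 CPM used a prior count of 2. The code was tested on simulated data. Text names all 10 genes, Gdf15, list genes called between genotypes or of smallest p, and the closest genes by correlation. The genes and the 9 lists were chosen with earlier results of these data known. Alternatives were DESeq2 1.42.0, limma-voom (limma 3.58.1), other scalings and filters, marker scores as covariates, a replicate block, fits by sex or genotype, and each mouse left out. The adipocyte and muscle scores entered uncentred and can take up a difference between the sexes. The mammary and epithelial score was centred within each sex and cannot take up their mean difference, so these covariates are not comparable between females and males. Promoters came from the RefSeq table of GRCm38.p6, gene coordinates from GENCODE M39.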

Additional observations from a re-analysis of the deposited data

Results flagged for a closer look

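Fitm2 in female WT replicate 4 lay far below the other female WT mice. It had 45.7 CPM there, where the next lowest of the 6 had 70.3 CPM and the highest 77.3 CPM, so that the gap took 0.777 of the range, past the limit of Dixon's test. It was the single such value among 40 sets of 1 gene in 1 group, where chance gives about 1 in 20. The same mouse had the lowest adipocyte score (9.02 log2 CPM) and the highest mammary and epithelial score (7.29 log2 CPM) of all 24 mice, and the part of either in this value was not tested.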

How the results depend on the processing

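Counts were lowest for Fitm1 (1 to 341 per mouse), Hilpda (67 to 164) and Plin5 (79 to 440), which limits how precisely each mouse was measured. Between Gdf15-KO and WT females 0 of the 10 genes were called, against 1 (Plin2) with DESeq2 in one fit and 1 (Plin2) with DESeq2 on females alone, an alternative chosen after seeing the data. Over both sexes 0 were called, against 2 (Plin2 and Plin5) with DESeq2, 2 (the same genes) with the adipocyte score as a covariate and 1 (Plin2) with the mammary and epithelial score. Between the sexes, 6 were called in Gdf15-KO mice, against 2 with the adipocyte covariate, and 5 in WT mice, against 3 with that covariate and 1 without male WT replicates 3, 4 and 6 (chosen after seeing the data). The other 62 counts of genes called or correlated, outside leaving out mice, stayed within 1.5 times, and all 80 alternative levels (prior counts of 0.5 and 5) moved by less than 1 SD. The filter of 10 counts in every mouse left 9 of the 10 genes, without Fitm1. The cause of these changes was not tested.

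Over all tested genes, 29 were called between genotypes in females, against 74 with DESeq2, 194 with DESeq2 and 18 with edgeR on females alone, and 47 with the epithelial covariate. In males 30 were called, against 51 with DESeq2 and 57 with DESeq2 on males alone. Over both sexes 62 were called, against 233 with DESeq2, 240 with the adipocyte and 445 with the epithelial covariate, 276 without male WT replicates 3, 4 and 6, 205 without male WT replicate 4 alone and 104 without male Gdf15-KO replicate 15 alone. Between the sexes in Gdf15-KO mice 4793 were called, against 3114 with the adipocyte covariate.

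Females and males of a genotype share replicate numbers, but same-numbered mice did not all deviate together (r from -0.56 to 0.396, over 0.1 in 9 of 12 pairs, and 4 of 12 best with their own number). With the replicate number as a block, 6 genes were called between the sexes in Gdf15-KO mice, 4 in WT mice (Hilpda was lost at 0.43, adjusted p = 0.0702) and 0 for the difference of the genotype effect. No paired analysis was possible for Gdf15-KO against WT because these groups share no number.

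Some log2 fold changes, none called in either fit, changed sign. Between genotypes in males Bscl2 became -0.0024 with limma-voom, -0.058 with the adipocyte covariate, -0.11 with the epithelial covariate and -0.021 without male WT replicates 3, 4 and 6. Also in males, Plin4 became -0.042 and Cidec -0.051 with the adipocyte covariate, Cidec -0.042 with the epithelial covariate, Fitm1 0.020 with the muscle covariate (-0.84 without it) and Plin1 0.015 without those 3 mice. For the difference between the sexes, the adipocyte covariate gave 0.066 for Plin1, 0.0036 for Plin3 and 0.12 for Fitm2, the muscle covariate -0.14 for Fitm1 (0.61 without it), the epithelial covariate 0.036 for Fitm2, and leaving out those 3 mice -0.16 for Plin4. Between females and males in Gdf15-KO mice Fitm1 became 0.13 with limma-voom, Fitm2 0.09999 (-0.28 without it) and Hilpda -0.068 with the adipocyte covariate, and Hilpda -0.0067 with the epithelial covariate. In WT mice Fitm1 became 0.12 with the muscle covariate (-0.93 without it).

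Leaving out 1 mouse at a time, the number of the 10 genes called between genotypes ranged from 0 to 0 in each sex, from 0 to 1 over both sexes (Plin2, without male WT replicate 4) and from 0 to 0 for the difference. Between the sexes it ranged from 6 to 7 in Gdf15-KO mice and from 3 to 5 in WT mice, with 3 without female WT replicate 4 or male WT replicate 3. The log2 fold changes that crossed 0 ranged in females from -0.55 to 0.020 for Fitm1 and from -0.14 to 0.021 for Hilpda. In males they ranged from -0.11 to 0.031 for Plin1, -0.087 to 0.0066 for Plin3, -0.083 to 0.13 for Plin4, -0.068 to 0.097 for Cidec, -0.050 to 0.086 for Bscl2 and -0.14 to 0.029 for Fitm2. For the difference they ranged from -0.071 to 0.030 for Plin3, -0.032 to 0.24 for Plin4, -0.25 to 0.032 for Plin5 and -0.13 to 0.054 for Fitm2. Between the sexes in Gdf15-KO mice they ranged from -0.64 to 0.094 for Fitm1 and -0.038 to 0.11 for Hilpda.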
